A study of Mus musculus with 6 samples.

Results

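The BCL-2 family decides whether a cell opens its outer mitochondrial membrane and dies. Here 10 of its genes were followed in mouse intestinal stem cells, with and without interferon gamma (IFNg): the pore formers Bak1 and Bax, the BH3-only killers Bid, Bik, Bbc3, Bcl2l11 and Pmaip1, and the guards Mcl1, Bcl2l1 and Bcl2. They were chosen by gene symbol, with earlier results of these data known, though no measured value enters the rule itself. All 10 were found among the 23127 genes of the table, and all 10 passed the filter on low values that left 16095 genes for testing.

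The 3 IFNg libraries (6, 2 and 10) were made from Lgr5-GFP high cells of the small intestine of C57BL/6 Lgr5-GFP mice, in which green fluorescent protein marks cells that use the crypt stem cell gene Lgr5. After sorting, these cells stood 1.5 h in ENR medium (EGF, Noggin and R-spondin1) to which IFNg was added at 1 ng/ml. The 3 untreated libraries (5, 1 and 9) came from the same kind of sorted cells and are labelled as having had no treatment. Their titles carry the same 1.5, but whether they stood in medium for that time is not stated. The age of the mice, their number and any pooling are not given in the labels. Libraries 6 and 5 carry the title tag GFP1 and the other 4 the tag GFP3, with no explanation of either.

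In the BCL-2 pathway, BH3-only proteins carry death signals to mitochondria. They bind and occupy the guards, and some of them also switch on BAX and BAK directly. Freed or activated BAX and BAK assemble into pores, cytochrome c leaves the mitochondria, and the apoptosome that it forms with APAF1 activates caspases. In the gut this pathway removes damaged crypt cells, and the guards MCL-1 and BCL-XL (the product of Bcl2l1) protect the epithelium. Much of the family is controlled at the protein level, by cleavage, binding and turnover, which RNA does not show.

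The list of 9 genes for crypt stem cells also holds the general epithelial genes Epcam, Krt8 and Cdh1. All 9 were above 0 in every library. Olfm4 was at 225396 to 240556 scaled counts in IFNg libraries and 219689 to 266604 in untreated libraries, and Lgr5 at 2484 to 5309.6 in IFNg libraries and 2801 to 8499 in untreated libraries. By limma 0 of the 9 passed, and 3 had an unadjusted p below 0.05, all above untreated (8.46% of all tested genes were higher at this level). These were Epcam (log2 1.79), Ascl2 (1.215) and Smoc2 (1.15). Epcam passed in DESeq2, where 2.89% of genes were called. The other genes of this list all had log2 changes below 0, and the groups overlapped for each of the 9. Scaled counts are reads per gene divided by 1 size factor per library, and the libraries held 28508762 to 40224497 reads in genes. Of 16 leukocyte markers, 13 were in the table. They summed to 267 to 340.4 scaled counts in IFNg libraries and 282 to 309 in untreated libraries. The T cell gene Cd3e was at 0 in IFNg 6 and untreated 1, but at 10.6 in IFNg 2 and 6.18 in untreated 9. Itgam was at 120 to 155 in IFNg libraries and 104 to 172 in untreated libraries. These values are for the identifier with more reads of those listed under that symbol. Ms4a1 was at 34.7 to 71.6 in IFNg libraries and 19.6 to 27.4 in untreated libraries, without overlap (8.13% of all tested genes were higher without overlap). Lyz2 lay the other way, at 2.56 to 11.4 in IFNg libraries and 10.3 to 30.9 in untreated libraries, with overlap. By limma 0 of the 6 tested passed, and 3 of the 6 had log2 changes above 0. All 10 Paneth cell markers had log2 changes below 0 (median -0.95), and their sum was 25604 to 203927 in IFNg libraries and 107660 to 364294 in untreated libraries. None of the 10 was at 0 in any library. Summed goblet markers were at 86590.5 to 173452 in IFNg libraries and 78676 to 276529 in untreated libraries, and summed stroma and endothelium markers at 125 to 328 in IFNg libraries and 84.3 to 572 in untreated libraries. The part of these cells in any difference given here was not tested. In such sorted bulk RNA, fewer cells of a kind and less RNA per cell cannot be told apart.

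Before any comparison of treatment, the level of each gene was set per kb of exon, since longer transcripts give more reads. A BH3-only gene stood at the top of the order in both groups, and Bak1 and Bcl2, whose ranges overlapped, at its bottom. Pmaip1, which encodes NOXA, a BH3-only protein that binds MCL-1, had 15417, 14048 and 15753 scaled counts per kb in IFNg 6, 2 and 10, and 11959.6, 23364 and 16464 in untreated 5, 1 and 9. In untreated cells its mean stood at the 99.6th percentile of the 16037 tested genes with a known exon length, where the median gene had 103 scaled counts per kb. The mean of the next member, Bax, was 13.5-fold lower, and the ranges of these genes over the untreated libraries did not meet. With the length of the longest coding transcript in place of all exons, these means were 17294 for Pmaip1 and 2331 for Bax, a smaller gap.

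Bax, the pore former that moves to mitochondria when activated, averaged 1236 ± 478 scaled counts per kb in IFNg libraries and 1283 ± 417 in untreated libraries (SD, n = 3 each, here and below). Bak1, the pore former that sits in the mitochondrial membrane already, averaged 43.8 ± 23.1 in IFNg libraries and 42.8 ± 18.9 in untreated libraries. The Bax level was 25.2 to 31.8 times the Bak1 level in IFNg libraries and 22.7 to 47.1 times in untreated libraries, so Bax was the higher of these genes in each of the 6. In untreated cells Bax stood at percentile 90.7 of tested genes and Bak1 at percentile 35.3.

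Among the guards, Mcl1, whose protein is short-lived and needs steady synthesis, was the highest, with 1523 ± 741 scaled counts per kb in IFNg libraries and 751 ± 239 in untreated libraries. Bcl2l1 followed with 306 ± 47.7 in IFNg libraries and 343 ± 121 in untreated libraries. Bcl2, the founding member of the family, was the lowest of the 10 in untreated cells, with 44.1 ± 8.33 in IFNg libraries and 29.2 ± 3.33 in untreated libraries. Mcl1 accounted for 79.2% ± 9.36 of the summed guard level in IFNg libraries and 66.1% ± 11.8 in untreated libraries, Bcl2l1 for 18.3% ± 8.54 in IFNg libraries and 31.2% ± 11.7 in untreated libraries, and Bcl2 for 2.53% ± 0.826 in IFNg libraries and 2.67% ± 0.692 in untreated libraries. The ranges of the IFNg and untreated libraries overlapped for each of these shares.

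The other BH3-only genes lay far below Pmaip1. Bid, whose protein links death receptors to mitochondria after cleavage by caspase-8, averaged 222 ± 56.9 scaled counts per kb in IFNg libraries and 243 ± 62.3 in untreated libraries. Bcl2l11, which encodes BIM, a broad binder of guards, averaged 218 ± 71.1 in IFNg libraries and 138 ± 31.7 in untreated libraries. Bik, which encodes a BH3-only protein of the endoplasmic reticulum, averaged 52.1 ± 11.8 in IFNg libraries and 103 ± 9.42 in untreated libraries. Bbc3, which encodes PUMA, a p53 target known for killing crypt cells after irradiation, averaged 118 ± 48.1 in IFNg libraries and 89.0 ± 6.25 in untreated libraries.

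In untreated cells the order by mean was Pmaip1, Bax, Mcl1, Bcl2l1, Bid, Bcl2l11, Bik, Bbc3, Bak1 and Bcl2. Of the 9 pairs of neighbours in that order, the library ranges overlapped between Bax and Mcl1, Bcl2l1 and Bid, Bik and Bbc3, and Bak1 and Bcl2. Bcl2l11 and Bik were just apart, with a lowest value of 110.5 for Bcl2l11 and a highest of 109.9 for Bik. In IFNg cells Mcl1 stood above Bax, with ranges that overlapped, and Bbc3 above Bik, with ranges that did not. Bcl2 and Bak1 were nearly level there, at means of 44.1 and 43.8, and their ranges overlapped.

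**Figure D1:**
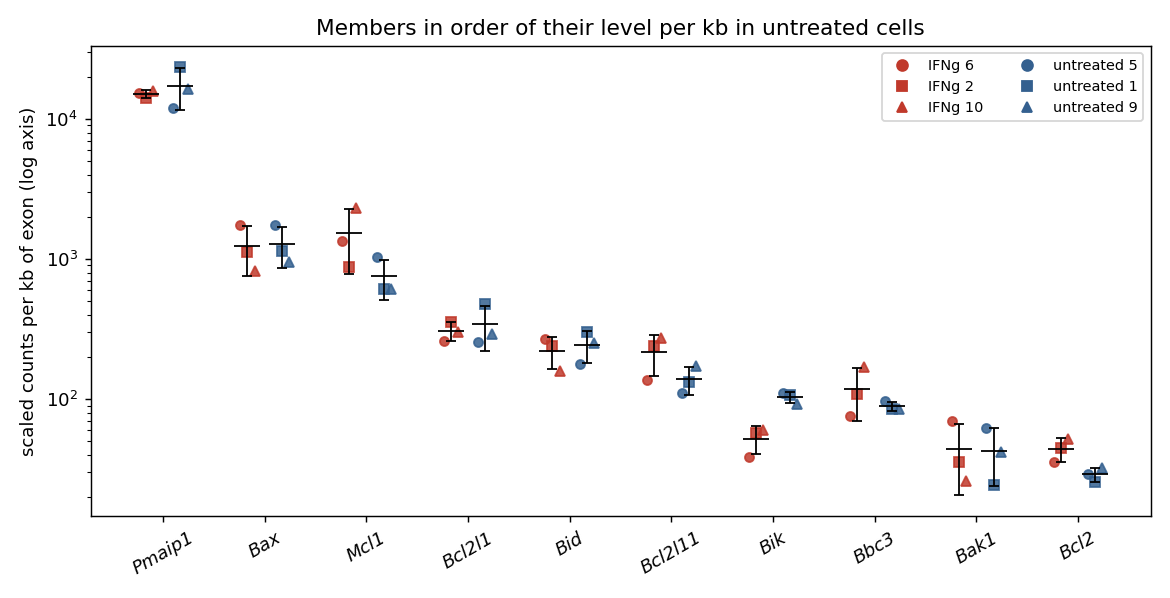
Scaled counts per kb of exon (log axis) for the 10 members, ordered by their mean in untreated cells. Red symbols are the 3 IFNg libraries and blue symbols the 3 untreated libraries, with black marks for mean ± SD. By its mean in untreated cells, Pmaip1 lies more than 10-fold above every other member, and Bak1 and Bcl2 lie at the bottom. In untreated 5 Pmaip1 was at 11959.6 and Bax at 1751, and in IFNg 6 Pmaip1 was at 15417 and Bax at 1758. In IFNg 10 Pmaip1 was at 15753 and Mcl1 at 2333. Each of these gaps is less than 10-fold, as is that between the IFNg means of Pmaip1 (15073) and Mcl1 (1523).

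Summed over their members, the 3 roles gave a balance for each library. Pmaip1 took 79.0% to 82.0% of the summed level of all 10 genes in IFNg libraries and 76.8% to 88.9% in untreated libraries, so a sum that holds it says little about the rest. Without it, pore formers over guards came to 1.11, 0.912 and 0.314 in IFNg 6, 2 and 10, against 1.38, 1.04 and 1.06 in untreated 5, 1 and 9. The 4 other BH3-only genes over guards came to 0.314, 0.504 and 0.247 in IFNg libraries, against 0.376, 0.559 and 0.643 in untreated libraries. Both ratios overlapped between the groups, and IFNg 10 had the lowest of each. Within each of the pairs 6 and 5, 2 and 1, and 10 and 9, both were lower in the IFNg library, and the Mcl1 share of the guards was higher.

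The sum of pore formers and BH3-only genes without Pmaip1, over guards, came to 1.42, 1.42 and 0.561 in IFNg 6, 2 and 10, and to 1.76, 1.603 and 1.71 in untreated 5, 1 and 9. These did not overlap. With the length of the longest coding transcript in place of all exons, they were 2.17, 1.95 and 0.843 in IFNg libraries and 2.60, 2.02 and 2.27 in untreated libraries, and did overlap. As a score over genes picked for their role it carries no test, and its level depends on the length used for each gene.

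**Figure D2:**
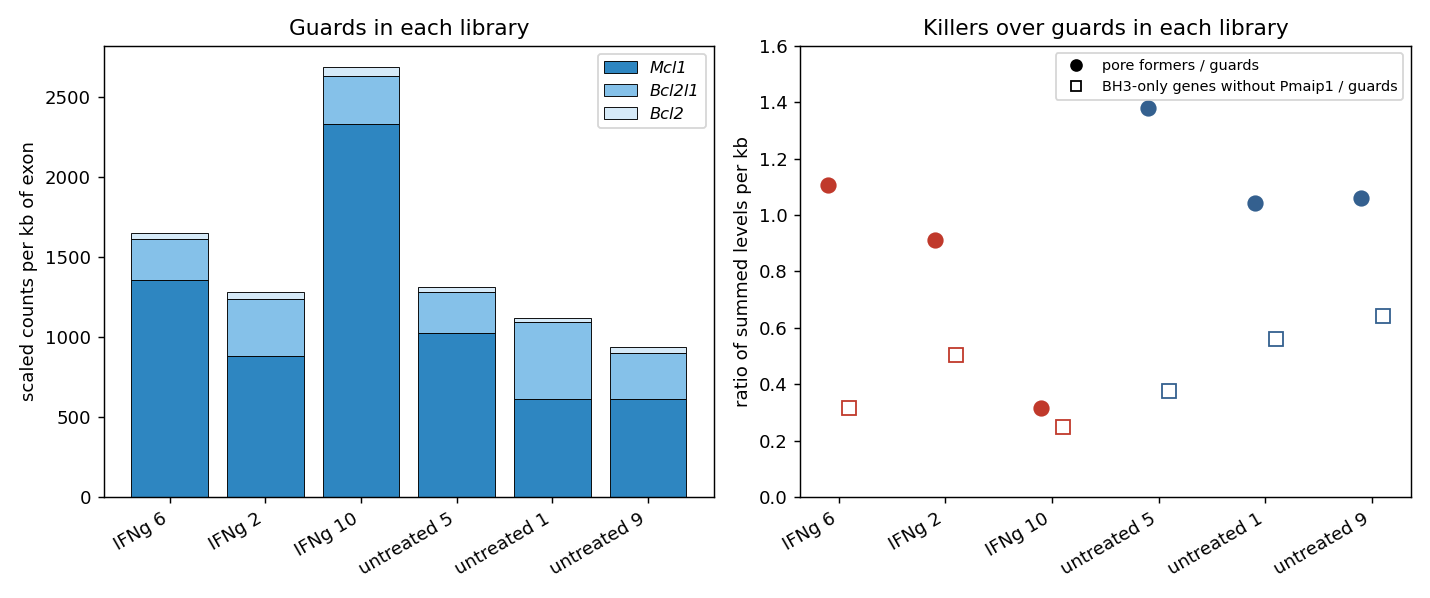
Left, the summed level of the guards per library in scaled counts per kb of exon, split into Mcl1, Bcl2l1 and Bcl2; right, the ratio of summed levels of pore formers (filled) and of BH3-only genes without Pmaip1 (open) to guards. Red is IFNg and blue untreated, and IFNg 10 has the tallest guard bar and the lowest ratios.

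The promoters were read for 8 of the 10 members, from RefSeq on GRCm38.p6, in 13 windows of 300 bases from 250 before to 50 after an annotated start. IFNg acts in part through IRF factors, whose sites were searched on both strands as a pair of GAAA runs with 2 bases between them. No match was found in the windows of Bak1, Bax, Bid, Bbc3, Bcl2l11, Mcl1, Bcl2l1 or Bcl2. Among all 32851 windows, 3.44% held one. These letters are thus not in these windows, which leaves more distant sequence and variant sites unread. The windows of the guard with the highest level and of the pore former with the lowest are shown, with the 50 bases from the start on in capitals.
Mcl1, chr3:95658471-95658770, plus strand: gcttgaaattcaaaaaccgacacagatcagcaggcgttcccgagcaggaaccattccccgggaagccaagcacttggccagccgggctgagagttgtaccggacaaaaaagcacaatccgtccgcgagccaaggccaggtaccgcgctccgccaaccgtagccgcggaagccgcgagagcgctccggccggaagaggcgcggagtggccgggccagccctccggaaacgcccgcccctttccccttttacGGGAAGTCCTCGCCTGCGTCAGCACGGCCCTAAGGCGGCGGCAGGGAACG
Bak1, chr17:27028578-27028877, minus strand: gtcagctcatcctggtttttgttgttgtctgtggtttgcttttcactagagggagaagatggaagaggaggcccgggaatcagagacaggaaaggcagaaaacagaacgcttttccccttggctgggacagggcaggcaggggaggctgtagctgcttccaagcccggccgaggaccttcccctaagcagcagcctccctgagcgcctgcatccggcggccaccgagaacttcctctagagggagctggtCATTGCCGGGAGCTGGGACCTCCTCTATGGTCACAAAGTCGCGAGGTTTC

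The second question was whether 1.5 h of IFNg changed these genes. By limma on log2(scaled count + 1), 0 of the 10 members passed an adjusted p of 0.05, where 0.416% of all tested genes were called higher and 0.0124% lower. At an unadjusted p under 0.05 there were 2 members, Mcl1 above untreated (8.46% of all tested genes were higher at this level) and Bik below (0.758% were lower). EdgeR also called 0 members (0.385% of genes called) and DESeq2 0 (2.89%). The count stayed at 0 with the libraries paired by title number as a block (0.466% called), in the 4 GFP3 libraries alone (8.34%) and without untreated 5 (2.29%).

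The guards and the killers held members on both sides of 0. The median log2 change was 0.59 for the 3 guards, -0.13 for the 5 BH3-only genes and -0.03 for both pore formers, beside -0.08 for all tested genes. IFNg and untreated libraries did not overlap for Bcl2, which was higher (8.13% of all tested genes were higher without overlap), and for Bik, which was lower (5.06% were lower). The other 8 members overlapped. In the 4 GFP3 libraries alone the log2 change was 1.23 for Mcl1, 0.77 for Bcl2l11, 0.74 for Bcl2 and -0.76 for Bik, with limma adjusted p-values from 0.135 to 0.293. The GFP1 tag has 1 library per group, the pair 6 and 5, and allows no test.

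**Figure D3:**
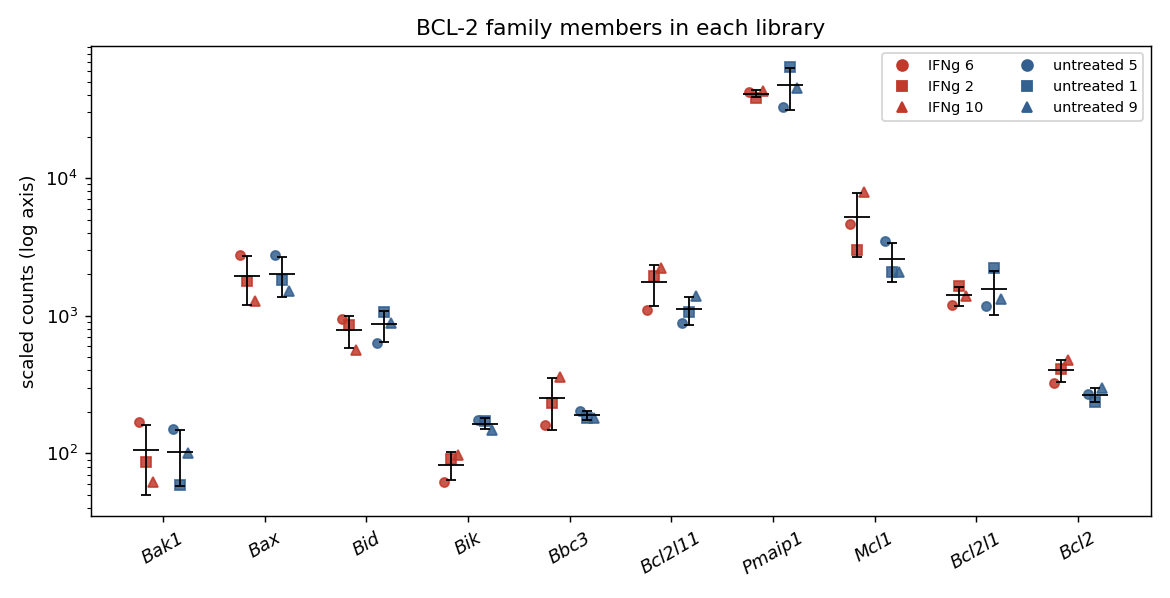
Scaled counts (log axis) of the 10 members in each library, with IFNg libraries in red at left and untreated libraries in blue at right of each gene, and black marks for mean ± SD (n = 3 each). Only Bik and Bcl2 show groups that do not overlap; scaled counts are not per length, so heights are to be compared within a gene.

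Bak1 (ENSMUSG00000057789.13, mm10 chromosome 17, 27019810 to 27029009, minus strand) had 168, 85.8 and 62.3 scaled counts in IFNg 6, 2 and 10, and 149.6, 58.5 and 101 in untreated 5, 1 and 9. The groups covered nearly the same span, and the highest library of each was the one tagged GFP1. Its log2 change was 0.01 ± 0.50 (SE), with a 95% interval from -1.13 to 1.14, so a change of about 2-fold either way lay within the interval. Exons of Ggnbp1 on the other strand cover part of its own (18.2% and 7.35% for 2 annotated genes of that name). The counting is not stated to use strand, and reads of such stretches cannot be told apart.

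Bax (ENSMUSG00000003873.10, chromosome 7, 45461697 to 45466898, minus strand) had 2770.1, 1784 and 1289 scaled counts in IFNg 6, 2 and 10, and 2760.0, 1804 and 1499.5 in untreated 5, 1 and 9. The GFP1 libraries 6 and 5 were nearly equal, and both were above the other 4 libraries, whatever the treatment. Within the pairs 6 and 5, 2 and 1, and 10 and 9, its log2 differences were 0.01, -0.02 and -0.22. The log2 change was -0.08 ± 0.36, with an interval from -0.89 to 0.74. The annotated gene Gm45808, not analysed here, overlaps 12.2% of the exons of Bax on the same strand. Over the 6 libraries, the genes whose centred log2 profile lay closest to that of Bax were Gins4, Tmem107 and 1810009A15Rik, with root mean square differences of 0.0430, 0.0467 and 0.0571.

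Among the BH3-only genes, Bik (ENSMUSG00000016758.3, chromosome 15, 83526862 to 83544634, plus strand) had 61.4, 90.6 and 96.5 scaled counts in IFNg 6, 2 and 10, and 175, 171 and 147 in untreated 5, 1 and 9. Every IFNg library was below every untreated one, and the lowest was IFNg 6. The mean was 82.8 ± 18.8 in IFNg libraries and 164 ± 15.0 in untreated libraries, a ratio of 0.504. Its log2 change came to -1.003 ± 0.35, with an interval from -1.79 to -0.22 and a limma adjusted p = 0.372 that did not pass. All 3 pairs were below 0, at -1.49, -0.91 and -0.60, and over the 15 alternatives the log2 change ran from -1.13 to -0.76, with adjusted p-values from 0.116 to 0.949. Closest in profile were Dao, 1700049G17Rik and Lrrc27 (0.0790, 0.120 and 0.127).

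Bcl2l11 (ENSMUSG00000027381.16, chromosome 2, 128126038 to 128162547, plus strand) had 1108, 1930.2 and 2205 scaled counts in IFNg 6, 2 and 10, and 887, 1057 and 1388 in untreated 5, 1 and 9. IFNg 6 lay within the untreated range and the other 2 IFNg libraries above it. The log2 change was 0.62 ± 0.33 (interval from -0.14 to 1.38, limma adjusted p = 0.695), and all 3 pairs were above 0, at 0.32, 0.87 and 0.67.

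Bbc3 (ENSMUSG00000002083.12, chromosome 7, 16308393 to 16318205, plus strand) had 160.3, 230.4 and 361 scaled counts in IFNg 6, 2 and 10, and 204, 182 and 181 in untreated 5, 1 and 9. The untreated libraries were close together, with a coefficient of variation of 7.02%, and the IFNg libraries spread on both sides of them, with one of 40.7%. Its log2 change was 0.33 ± 0.37 (interval from -0.50 to 1.16), and the pair of libraries 6 and 5 was below 0.

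Bid (ENSMUSG00000004446.12, chromosome 6, 120891930 to 120916853, minus strand) had 949, 851 and 561 scaled counts in IFNg 6, 2 and 10, and 630.0, 1070.2 and 889.8 in untreated 5, 1 and 9. The groups overlapped and the pairs had both signs. Its log2 change was -0.13 ± 0.33 (interval from -0.87 to 0.60). Exons of Bcl2l13, another gene of the family on the opposite strand, overlap 17.7% of the exons of Bid, so its value is uncertain.

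Pmaip1 (ENSMUSG00000024521.7, chromosome 18, 66458533 to 66465565, plus strand) had 42119.8, 38380.0 and 43038 scaled counts in IFNg 6, 2 and 10, and 32674, 63831 and 44980.2 in untreated 5, 1 and 9. The IFNg libraries lay inside the untreated range, and untreated 1 was the highest of the 6. The coefficient of variation was 5.99% in IFNg libraries and 33.3% in untreated libraries. The log2 change was -0.14 ± 0.29 (interval from -0.81 to 0.52), and with untreated 1 left out it was 0.10. High RNA of this killer was thus measured in both groups, and a change of 2-fold either way lay outside the interval.

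Of the guards, Mcl1 (ENSMUSG00000038612.16, chromosome 3, 95658788 to 95663176, plus strand) had 4634, 3008 and 7974 scaled counts in IFNg 6, 2 and 10, and 3511, 2093 and 2094 in untreated 5, 1 and 9. IFNg 10 was the highest of the 6, and IFNg 2 lay below untreated 5, so the groups overlapped. The mean was 5205 ± 2532 in IFNg libraries and 2566 ± 818 in untreated libraries, a ratio of 2.03. Mcl1 had a log2 change of 0.95 ± 0.39, with an interval from 0.07 to 1.83 and a limma adjusted p = 0.478. All 3 pairs were above 0, at 0.40, 0.52 and 1.93, the last of them the pair of IFNg 10 and untreated 9. Over the alternatives the log2 change ran from 0.59, without IFNg 10, to 1.29, with adjusted p-values from 0.153 to 0.999. Closest in profile were Mxi1, Rnf225 and Stk39 (0.0688, 0.0876 and 0.106).

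Bcl2 (ENSMUSG00000057329.7, chromosome 1, 106538178 to 106714274, minus strand) had 327, 407 and 479 scaled counts in IFNg 6, 2 and 10, and 269, 236 and 297 in untreated 5, 1 and 9. Every IFNg library was above every untreated one, and the gap between untreated 9 and IFNg 6 was the narrow point. The mean was 404 ± 76.2 in IFNg libraries and 267 ± 30.5 in untreated libraries, a ratio of 1.51. Bcl2 had a log2 change of 0.59 ± 0.30 (interval from -0.09 to 1.26, limma adjusted p = 0.648, from 0.232 to 0.999 over the alternatives), with pairs at 0.28, 0.78 and 0.69. The antisense gene D630008O14Rik overlaps 6.09% of its exons.

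Bcl2l1 (ENSMUSG00000007659.18, chromosome 2, 152780668 to 152831728, minus strand) had 1195, 1631 and 1389 scaled counts in IFNg 6, 2 and 10, and 1179, 2208 and 1332 in untreated 5, 1 and 9. All IFNg libraries lay within the untreated range, whose top was untreated 1. The log2 change was -0.12 ± 0.31 (interval from -0.82 to 0.58). The table gives 1 value per gene, so the long and short splice forms of Bcl2l1, which guard and kill, were not separated, nor were the forms of Mcl1, Bcl2l11 and Bax.

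**Figure D4:**
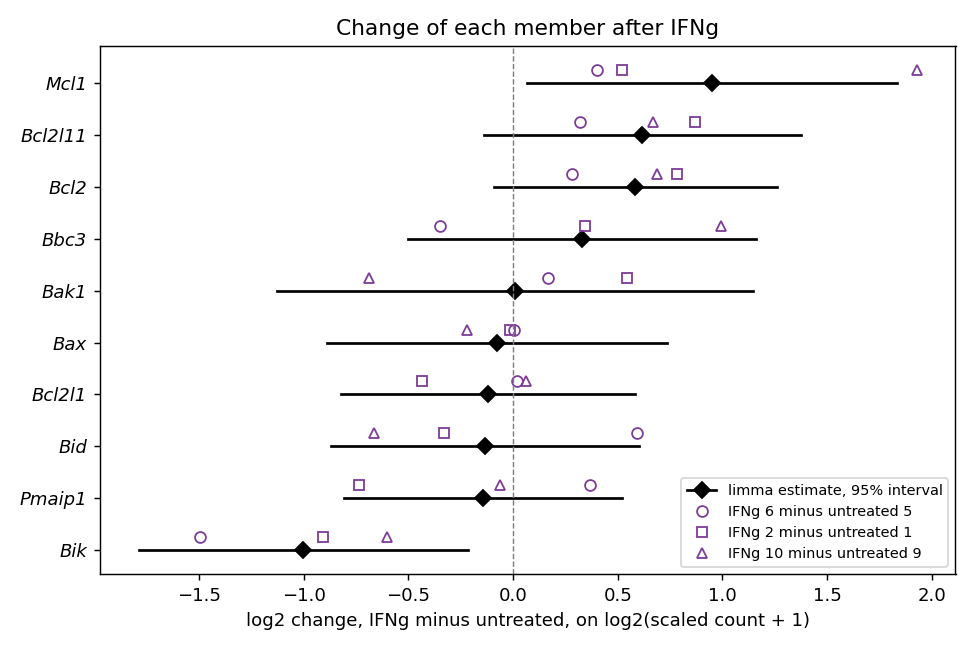
Log2 change of each member, IFNg minus untreated, on the log2(scaled count + 1) scale. Black diamonds and lines are limma estimates with 95% intervals, and open symbols are the differences within the library pairs 6 and 5, 2 and 1, and 10 and 9. All 3 pairs lie above 0 for Mcl1, Bcl2l11 and Bcl2 and below 0 for Bik, and the intervals of Mcl1 and Bik alone leave out 0 before adjustment.

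For the remaining members, the closest profiles were those of Pcbd1 for Bak1, Arfrp1 for Bid, Eme1 for Bbc3, Gm7389 for Bcl2l11, Dpp4 for Pmaip1, Aar2 for Bcl2l1 and Ocrl for Bcl2. Each of these likenesses was the best among 16095 genes over only 6 libraries.

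Further members of the family showed no call either. Of 15 other BCL-2 family genes listed, 12 were in the table and 10 were tested. By limma, edgeR and DESeq2 0 passed, and limma gave 0 with an unadjusted p below 0.05. Of the 10 log2 changes 2 were above 0, and their median was -0.25 beside -0.08 for all genes. Bcl2l13, a mitochondrial outer membrane protein, was at 3948 ± 1553 in IFNg libraries and 4719 ± 1631 in untreated libraries. The mitophagy receptor Bnip3l was at 2636 ± 439 in IFNg libraries and 3359.6 ± 477 in untreated libraries, and Bok, a pore former related to Bax and Bak1, at 2034 ± 438 in IFNg libraries and 2069 ± 801 in untreated libraries. The guards Bcl2a1a, Bcl2a1b and Bcl2l10 were not analysed here, and Bcl2a1d and the BH3-only gene Hrk were under the filter, with means of 1.90 and 2.15 in IFNg libraries and 1.90 and 2.74 in untreated libraries.

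Downstream of the pore, 0 of 15 apoptosome and executioner genes passed in limma or edgeR and 1 did in DESeq2 (2.89% of genes called). The median log2 change was -0.16. In limma 1 had an unadjusted p below 0.05, above untreated (8.46% of all tested genes were higher at this level). That 1 was Endog, a mitochondrial nuclease, picked out after its values were seen. It had 131, 118 and 464 scaled counts in IFNg 6, 2 and 10, and 84.3, 25.8 and 17.5 in untreated 5, 1 and 9 (log2 2.48, limma adjusted p = 0.296). Vdac1 and Vdac2, channels of the outer mitochondrial membrane, were at 10711 ± 2040 and 9502 ± 2160 in IFNg libraries and at 10205 ± 1091 and 9069 ± 1269 in untreated libraries. Aifm1, a flavoprotein of the space between the mitochondrial membranes, was at 4364 ± 339.6 in IFNg libraries and 5136 ± 1377 in untreated libraries.

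Of 9 inhibitor of apoptosis genes 0 passed in limma, edgeR or DESeq2, and 0 had an unadjusted p under 0.05. Their median log2 change was -0.05. Birc5 was at 2425 ± 1221 in IFNg libraries and 2288 ± 886 in untreated libraries, Birc6 at 2414 ± 560.0 in IFNg libraries and 2095 ± 445 in untreated libraries, and Birc2 at 1759 ± 278 in IFNg libraries and 1404 ± 373 in untreated libraries. Xiap, which blocks caspases directly and was picked out after its values were seen, had 931, 891 and 958 scaled counts in IFNg libraries, all below the 1436, 1416 and 1150.4 of untreated libraries (log2 -0.52, limma adjusted p = 0.611). Of all tested genes, 5.06% were lower without overlap.

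Among 19 tested genes that act above the family, 1 passed in limma and edgeR and 3 did in DESeq2. Of all tested genes, 0.416% were called higher in limma, and 0.385% were called in edgeR and 2.89% in DESeq2. Irf1, an IFNg target that encodes a transcription factor, had 55019, 66943 and 56965 scaled counts in IFNg libraries and 1718, 1726 and 1876 in untreated libraries (log2 5.07, limma adjusted p = 2.33e-05), a rise in every pair. Jun, a stress-responsive transcription factor that also passed in DESeq2, was picked out after its values were seen. It had 6223, 13276 and 17139 scaled counts in IFNg 6, 2 and 10, and 5734, 3259.7 and 2641 in untreated 5, 1 and 9 (log2 1.61, limma adjusted p = 0.294). Every IFNg library was above every untreated one (8.13% of all tested genes were higher without overlap). Myc, which sensitises cells to death, was at 38020.1 ± 5481 in IFNg libraries and 49136 ± 13834 in untreated libraries, and the p53 target Cdkn1a was at 27739.6 ± 2561 in IFNg libraries and 34362 ± 8599 in untreated libraries.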

How the data were processed

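Libraries were made from 2 ng of total RNA (SMART-Seq v4, 12 cycles) and then 10 ng of cDNA (KAPA Hyper, 8 cycles), per the labels' protocols. The authors deposited scaled counts, a signal of read counts divided by 1 size factor per library, per the file name. Tools named, per the submitters' processing notes, are DESeq 1.22.1, HTSeq 0.5.3, STAR 2.5.0a and cutadapt 1.6, with the build mm10 and no roles. The annotation used for counting and its strand setting were not given in the sources used here.

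Rows naming no gene (4) were left out; over libraries, their share for alignments that were not unique was 18.5% to 25.0%. Reads were recovered by dividing by each library's step, and 100% of the 138762 values came out whole to within 0.01 read. Members had 68 to 74195 reads per library, and without molecular identifiers counting error covers only part of the technical error.

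The main test was limma 3.58.1 (R 4.3.3; trended, robust, two-sided) on log2(scaled count + 1) for genes averaging 10 scaled counts or more, with Benjamini-Hochberg adjustment over all 16095 and a threshold of 0.05. EdgeR 4.0.16 (quasi-likelihood, TMM) and DESeq2 1.42.0 were run on recovered reads. Log2 changes understate those of low genes. Exon lengths and positions came from GENCODE M21 (mm10), as the union of exons per gene.

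Members and lists were chosen with earlier results of these data known. The genes named from other lists are mainly those called and the 3 highest by mean. Endog, Xiap and Jun were picked out after their values were seen, and cell type markers were named by no fixed rule. Likeness is the root mean square difference of log2 profiles, each centred on its mean. Whether the libraries are from separate mice is not stated, and p-values therefore reflect only how these samples vary, perhaps for technical reasons. Neighbouring title numbers were taken as pairs. The deviations of such neighbours from their group means correlated across genes: r was 0.302 (6 with 5), 0.404 (2 with 1) and 0.252 (10 with 9). In every other combination r was below 0, which is forced in part, since deviations within a group sum to 0. The labels do not state this pairing. Some genes and a motif of the lists are not reported here.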

Additional observations from a re-analysis of the deposited data

How the results depend on the processing

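None of the 10 members passed in limma or in any of the 15 alternatives (pseudocount 5, no filter, a mean of at least 50, TMM scaling, blocks by replicate number and by title tag, the GFP3 libraries alone, edgeR, DESeq2 and each library left out). Mcl1, Bcl2l11, Bcl2 and Bbc3 stayed above 0 and Bik below 0 in all of these. The log2 change of Bak1 (0.01) turned to -0.0368 with TMM scaling, -0.0713 in the GFP3 libraries alone and -0.00658 in edgeR, and ran from -0.39 to 0.325 over the fits that leave out 1 library. Where 1 library was left out, Bax ran from -0.37 to 0.185, Bid from -0.345 to 0.0919, Pmaip1 from -0.382 to 0.101 and Bcl2l1 from -0.30 to 0.15, with signs that turned. Of all genes, 67 were higher and 2 lower. Higher genes numbered 108 with the title tag as a block, 1331 in the GFP3 libraries alone, 457 in DESeq2, and 40 to 366 with 1 library left out (366 without untreated 5, 40 without IFNg 2, 44 without IFNg 10). Lower genes numbered 1 with a mean of at least 50 and with the replicate block, 12 in the GFP3 libraries alone, 8 in DESeq2, and 1 to 3 with 1 library left out. The cause of these shifts was not tested. With the length of the longest coding transcript, a choice made after seeing the data, pore formers over guards were 1.198 in IFNg libraries and 1.68 in untreated libraries, against 0.777 and 1.16 with all exons. Pmaip1 then took 74.0% of the member total in IFNg libraries, and Mcl1 69.3% of the guards in IFNg libraries and 53.45% in untreated libraries. The order of the 10 mean levels in untreated cells was the same with either length. In untreated 1, with the longest coding transcript, Bcl2l1 took 57.1% of the guards and Mcl1 40.7%. With all exons these shares were 43.0% and 54.7%.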
